A study of Mus musculus with 32 samples.

Results

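Activity-dependent immediate early genes were followed across 32 libraries of mouse cerebral cortex, by symbol: 35 of the 55401 rows of the deposited table of raw counts carried a symbol of the list, and 33 of the 16042 genes with enough counts to be tested were among them. Egr2 and Atf3 were too low to test. The rule goes by symbol and uses no value of these samples, though the list was chosen with earlier results of these data known.

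The animals were 6 weeks old. Ts65Dn;Df(17)2 mice (n = 10, 5 male and 5 female) carry the Ts65Dn freestanding additional chromosome, made of the distal part of chromosome 16 joined to the start of chromosome 17, together with the deficiency Df(17)2, and are called trisomic below. Dp(16)1/Df(16)8 mice (n = 10, 5 male and 5 female by label) carry the chromosome 16 region as a tandem duplication with the deficiency Df(16)8, and are called duplication mice. The euploid +/+ mice (n = 12, 6 male and 6 female) carry neither. As background, the deficiencies bring back to the normal dose the parts that the rearranged chromosomes do not share, so that both aneuploid genotypes have nearly the same additional genes, and the series asks whether the form of the aneuploidy matters. In bulk tissue, fewer cells of a type and less RNA per cell cannot be told apart.

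As background, immediate early genes are switched on within minutes of a rise in calcium or cyclic AMP in a neuron, by factors that are already present, such as CREB and SRF, without the need for new protein. Their products are transcription factors, phosphatases that turn the signal off, proteins that remodel the synapse, and secreted peptides. In cortex they report recent neuronal activity, so that a level at the time of dissection also reads what an animal did just before it. None of the 35 lies on chromosome 16. Dusp1 is the one on chromosome 17, at 26505590 to 26562128 of GRCm38, beyond the part near the centromere that Ts65Dn adds.

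CREB binds the CRE, whose palindrome is TGACGTCA and whose half-site is TGACG, and EGR proteins bind GCGNGGGCG. Promoter sequences from RefSeq (GRCm38.p6) were found for 27 members and for 27025 genes in all, and the 250 bases before each start were searched on both strands. The half-site was present for 19 of 27 members (70.4%), against 19.8% of all genes. The palindrome, which holds the half-site on each strand, was present for 3 members (Btg2, Dusp1 and Scg2, 11.1%), against 1.77%. The EGR site was present for 8 (29.6%), against 5.33%. The AP-1 site TGANTCA, searched on both strands, was present for 1 (3.7%), against 7.82%, the TATAAA box on the gene's strand for 4 (14.8%), against 8.94%, and the CArG box bound by SRF, on both strands, for 2 (7.41%), against 1.62%. A match describes the letters and is no evidence that a factor is bound. The 200 bases before the start of 8 members follow, 5′ to 3′ on the gene's strand. Junb, Nr4a1, Egr4, Dusp1, Npas4 and Fosb are shown with Fos because they move with it from library to library (see the relation with Fos). Scg2 is shown because it does not, and because it alone passed the threshold in trisomic mice against +/+. That call depended on the processing. Capitals mark CRE half-sites and palindromes, EGR sites and TATA boxes in the letters above, on whichever strand.
Fos (chr12:85473690-85473889, plus strand): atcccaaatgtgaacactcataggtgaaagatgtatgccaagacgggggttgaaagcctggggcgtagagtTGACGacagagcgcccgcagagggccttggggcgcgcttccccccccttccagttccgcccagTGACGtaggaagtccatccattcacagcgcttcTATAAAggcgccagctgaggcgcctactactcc
Junb (chr8:84978749-84978948, minus strand): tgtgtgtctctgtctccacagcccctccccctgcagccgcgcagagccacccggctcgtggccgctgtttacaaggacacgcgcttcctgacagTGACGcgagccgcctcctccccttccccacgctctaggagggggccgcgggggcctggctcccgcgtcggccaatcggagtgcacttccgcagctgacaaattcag
Nr4a1 (chr15:101266646-101266845, plus strand): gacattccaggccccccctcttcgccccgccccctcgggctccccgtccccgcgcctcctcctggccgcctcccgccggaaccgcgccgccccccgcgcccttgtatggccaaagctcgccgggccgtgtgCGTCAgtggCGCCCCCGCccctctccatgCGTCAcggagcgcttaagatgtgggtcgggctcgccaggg
Egr4 (chr6:85513590-85513789, minus strand): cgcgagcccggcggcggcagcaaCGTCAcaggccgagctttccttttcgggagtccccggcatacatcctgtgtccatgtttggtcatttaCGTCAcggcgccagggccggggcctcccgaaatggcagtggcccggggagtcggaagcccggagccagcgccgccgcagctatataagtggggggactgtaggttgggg
Dusp1 (chr17:26508473-26508672, minus strand): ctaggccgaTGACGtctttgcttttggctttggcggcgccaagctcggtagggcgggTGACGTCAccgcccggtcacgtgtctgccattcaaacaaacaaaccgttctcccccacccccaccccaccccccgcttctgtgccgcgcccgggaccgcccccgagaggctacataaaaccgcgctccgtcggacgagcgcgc
Npas4 (chr19:4989972-4990171, minus strand): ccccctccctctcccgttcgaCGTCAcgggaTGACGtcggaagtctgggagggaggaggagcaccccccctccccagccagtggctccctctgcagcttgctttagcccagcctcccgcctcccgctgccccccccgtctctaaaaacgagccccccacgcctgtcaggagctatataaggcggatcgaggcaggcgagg
Fosb (chr7:19310046-19310245, minus strand): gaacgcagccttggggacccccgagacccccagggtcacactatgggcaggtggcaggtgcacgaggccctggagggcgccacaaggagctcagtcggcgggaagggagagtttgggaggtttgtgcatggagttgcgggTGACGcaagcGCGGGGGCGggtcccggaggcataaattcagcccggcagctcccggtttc
Scg2 (chr1:79440027-79440226, minus strand): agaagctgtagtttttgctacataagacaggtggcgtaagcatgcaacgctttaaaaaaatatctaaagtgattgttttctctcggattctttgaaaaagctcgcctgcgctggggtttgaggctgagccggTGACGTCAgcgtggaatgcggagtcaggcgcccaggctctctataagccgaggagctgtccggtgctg
All 8 hold at least 1 half-site in the stretch shown. That of Fos holds half-sites at bases -129 to -125 and -66 to -62 before the start and TATAAA at -33 to -28. The palindrome stands at -143 to -136 in Dusp1 and at -68 to -61 in Scg2, so the palindrome is shared by a gene that follows Fos and by one that does not.

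Library totals ran from 5795479 to 11189548 counts, and mitochondrially encoded genes took 2.32% to 3.61% of counts. In 31 of 32 libraries Xist and the Y-linked transcripts matched the sex label, and Dp(16)1/Df(16)8 replicate 2, labelled female, had 14 counts of Xist and 696 of Ddx3y. It was kept with its label. Without it 0 members in place of 1 passed the threshold in trisomic mice against +/+, and 0 passed in each other comparison, as with it. Over all genes 525 of 16080 passed in trisomic mice against +/+ without that library, and 637 of 16042 with it. The labels say cerebral cortex, and excitatory cortical neuron markers were present in every library. Markers of striatal neurons (15 of 15 tested, 0 at zero in all libraries) were present too. Their mean log2 CPM was 5.88 ± 0.664 in Ts65Dn;Df(17)2 (SD, n = 10), 5.27 ± 1.5 in Dp(16)1/Df(16)8 (n = 10) and 4.59 ± 1.55 in +/+ (n = 12), and their summed level ran from 643.2 to 2741 CPM in trisomic, from 199.3 to 2997 CPM in duplication and from 166.6 to 3111 CPM in +/+ mice. The mean log2 CPM of 12 excitatory cortical neuron markers was 5.77 ± 0.335 in trisomic, 5.92 ± 0.425 in duplication and 6.24 ± 0.328 in +/+ mice (SD, n = 10, 10 and 12), and their summed level ran from 1088 to 1911 CPM in trisomic, from 1107 to 2293 CPM in duplication and from 1135 to 2281 CPM in +/+ mice. In both aneuploid genotypes the striatal mean was higher and the excitatory mean lower than in +/+. Results with the striatal mean as a term are given beside the genotype comparisons and the relation with Fos, and not for sex. The part of the excitatory markers was not tested.

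Measured per kilobase of exon, so that genes can be set beside each other, the most abundant members in +/+ were Egr1 (median 69.2 CPM per kb), a zinc finger factor, Scg2 (68.47), the secretogranin of dense-core vesicles, Vgf (61.05), a neuropeptide precursor, and Arc (60.88), which acts in the removal of AMPA receptors at synapses. The lowest were Egr2 (0.3643) and Atf3 (0.2088). Fos, at 13.55 CPM per kb, was the 15th of 35. Scg2 reached 100.5 CPM per kb in trisomic and 100.5 in duplication mice.

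The values per library of the AP-1 members come first. Fos, which pairs with Jun proteins as AP-1, was from 7.03 to 52.1 CPM in trisomic mice (median 25.6), from 4.155 to 47.4 CPM in duplication mice (median 21.95) and from 10.7 to 59.8 CPM in +/+ mice (median 31.9). Junb, a Jun protein, was from 17.5 to 71.9 CPM in trisomic mice (median 39.7), from 13.1 to 61 CPM in duplication mice (median 34.4) and from 22.85 to 83.5 CPM in +/+ mice (median 47.7). Jun was from 31.2 to 62.95 CPM in trisomic mice (median 40.2), from 28.8 to 61.8 CPM in duplication mice (median 41.4) and from 26.35 to 80.7 CPM in +/+ mice (median 43.4). The ranges of the genotypes overlapped for all 3, and the level of Fos spanned 5.58-fold within the +/+ mice alone. Fosl2, another Fos protein, was from 49.8 to 133 CPM in trisomic mice (median 79.6), from 41.8 to 118 CPM in duplication mice (median 71.8) and from 45.8 to 150.3 CPM in +/+ mice (median 78.85).

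Of the EGR factors, Egr1 was from 173.5 to 417 CPM in trisomic mice (median 240.2), from 125.5 to 585 CPM in duplication mice (median 227) and from 163.5 to 614 CPM in +/+ mice (median 310.3). Egr3 was from 96.9 to 175 CPM in trisomic mice (median 120.4), from 96.8 to 278 CPM in duplication mice (median 137) and from 84.5 to 419 CPM in +/+ mice (median 164), with 9 of 10 trisomic mice below the +/+ median. Egr4 was from 14.05 to 35.1 CPM in trisomic mice (median 19.45), from 11.1 to 27.3 CPM in duplication mice (median 22.4) and from 16.5 to 37.25 CPM in +/+ mice (median 27.9), with all 10 duplication mice below the +/+ median. Egr2, which stayed under 2 CPM in each library, was from 0 to 1.68 CPM in trisomic mice (median 0.582), from 0.125 to 1.36 CPM in duplication mice (median 0.614) and from 0.122 to 1.896 CPM in +/+ mice (median 1.24). The groups overlapped for each, and the highest +/+ values of Egr1 and Egr3 lay above the highest trisomic ones. Npas4, a neuron-specific factor that responds to calcium entry, was from 10.15 to 44.4 CPM in trisomic mice (median 21.1), from 10.9 to 59.7 CPM in duplication mice (median 27.2) and from 19 to 63.5 CPM in +/+ mice (median 34.02). The orphan nuclear receptor Nr4a1 was from 31.9 to 129.5 CPM in trisomic mice (median 66.6), from 16.75 to 117 CPM in duplication mice (median 62.8) and from 29.8 to 157 CPM in +/+ mice (median 104), and its relative Nr4a3 was from 33.9 to 100.3 CPM in trisomic mice (median 59.1), from 23.9 to 95.7 CPM in duplication mice (median 47.2) and from 24.7 to 126 CPM in +/+ mice (median 66.1). The medians of all 3 were lower in both aneuploid genotypes than in +/+, and their ranges overlapped. Of the other factors, Klf4 was from 2.84 to 9.36 CPM in trisomic mice (median 5.19), from 3.89 to 8.66 CPM in duplication mice (median 4.75) and from 3.65 to 9.29 CPM in +/+ mice (median 4.94), and the clock gene Per1 was from 91.4 to 185 CPM in trisomic mice (median 114), from 63.4 to 184 CPM in duplication mice (median 107) and from 82.7 to 205 CPM in +/+ mice (median 138).

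Among the phosphatases, feedback genes and other early genes, Dusp1 is a phosphatase that inactivates MAP kinases. It was from 10.2 to 38.8 CPM in trisomic mice (median 21.45) and from 8.58 to 43.04 CPM in duplication mice (median 21.5). In +/+ mice it was from 10.9 to 56.1 CPM (median 33). Ier2, an early gene whose product is nuclear, was from 2.196 to 6.28 CPM in trisomic mice (median 3.46), from 1.34 to 5.68 CPM in duplication mice (median 3.04) and from 1.39 to 10.8 CPM in +/+ mice (median 6.198). All 10 duplication mice and 9 of 10 trisomic mice were below the +/+ median of Ier2, while the ranges overlapped. Its raw counts ran from 10 to 82 over all libraries.

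Among the synaptic effectors, Arc was from 42.5 to 275.5 CPM in trisomic mice (median 113), from 24.1 to 346 CPM in duplication mice (median 123) and from 54.03 to 533 CPM in +/+ mice (median 186). Homer1 was from 325 to 606 CPM in trisomic mice (median 409), from 337 to 773 CPM in duplication mice (median 410.5) and from 270.2 to 1016 CPM in +/+ mice (median 463); these counts merge the long scaffold form with the short form that activity induces. Nptx2, a secreted pentraxin that gathers AMPA receptors, was from 19.5 to 35.9 CPM in trisomic mice (median 26.55), from 17.9 to 56.4 CPM in duplication mice (median 37.1) and from 18.6 to 75.55 CPM in +/+ mice (median 37.1). For Nptx2 all 10 trisomic mice were below the +/+ median, and 5 of 10 duplication mice were.

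Among the secreted factors, Bdnf, a neurotrophin, was from 14.8 to 29.3 CPM in trisomic mice (median 24.6), from 12.6 to 55.1 CPM in duplication mice (median 26) and from 16.3 to 63.1 CPM in +/+ mice (median 28.7). Inhba, the activin A subunit gene, was from 10.1 to 27.99 CPM in trisomic mice (median 20.9), from 11.01 to 37.8 CPM in duplication mice (median 21.65) and from 11.8 to 41.5 CPM in +/+ mice (median 18.7). Vgf was from 148 to 183 CPM in trisomic mice (median 156), from 156 to 227.5 CPM in duplication mice (median 172) and from 145 to 258.5 CPM in +/+ mice (median 181.5), with the narrowest spread of the members. Scg2 was from 212 to 329 CPM in trisomic mice (median 253), from 130.5 to 326 CPM in duplication mice (median 253) and from 133 to 299 CPM in +/+ mice (median 172), and all 10 trisomic mice lay above the +/+ median, as did 8 of 10 duplication mice. The ranges of all 35 members overlapped between each pair of genotypes.

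**Figure D1:**
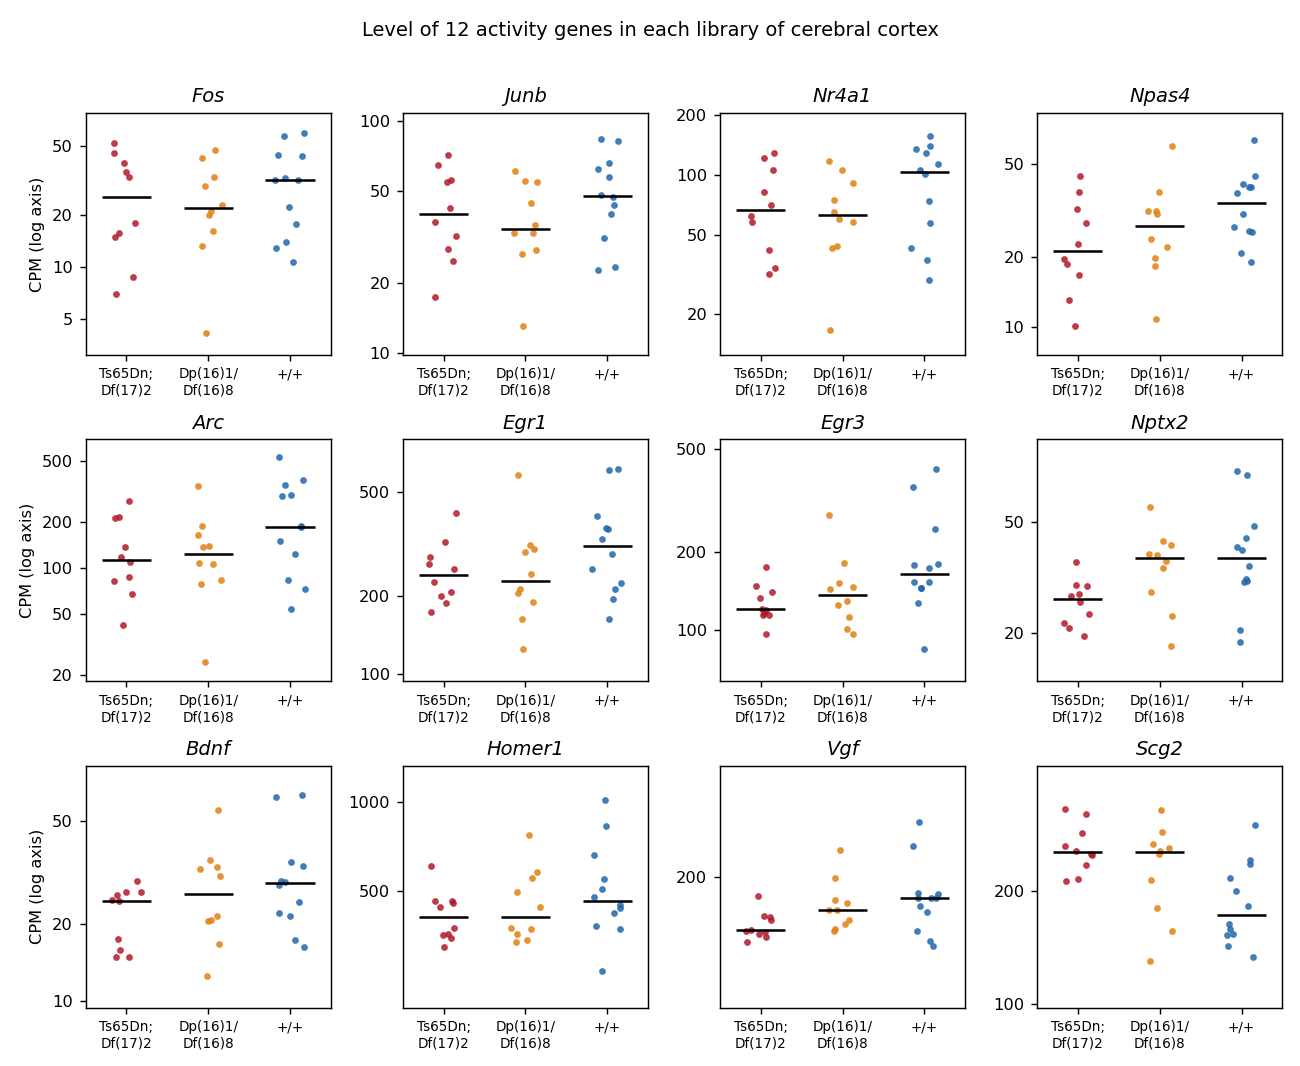
CPM (log axis) of 12 members in each library, with Ts65Dn;Df(17)2 on the left, then Dp(16)1/Df(16)8, then +/+, and a bar at each median. The points of Fos, Arc and Nr4a1 spread widely within each genotype, the highest Egr3 and Nptx2 values are +/+, and Scg2 is higher in trisomic mice (median 252.8 CPM) than in +/+ (172.2 CPM).

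The question of the first comparison is what the freestanding trisomy changes. Of 33 members tested, 1 rose and 0 fell in Ts65Dn;Df(17)2 against +/+; over all 16042 genes tested, 1.75% rose and 2.22% fell. Scg2 was the one, at log2 0.46 (SE 0.14) with a Benjamini-Hochberg adjusted p of 0.0494 by the quasi-likelihood test of edgeR. At an unadjusted p under 0.05, 9 members were lower and 1 higher, against 11.3% and 10.4% of all genes, and 31 of 33 fold changes were below 0, against 48.6%. The median member stood at log2 -0.31, and the median gene at 0.0047. DESeq2 called 3 members (Egr3 and Nptx2 lower, Scg2 higher) and limma voom 1. Over all 16042 genes, in either direction, DESeq2 called 1069 and limma voom 652, against 637 by edgeR.

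The members nearest to the threshold without passing in that comparison were all lower. Nptx2 was at log2 -0.63 (SE 0.20), adjusted p = 0.0597 by edgeR. Egr3 was at log2 -0.57 (SE 0.19) with 0.0747, Crem, a cyclic AMP responsive modulator, at log2 -0.37 (SE 0.13) with 0.0797, and Ier5 at log2 -0.60 (SE 0.22) with 0.095. Farther from it by adjusted p of edgeR were Vgf at log2 -0.19 (SE 0.076) with 0.131 and Bdnf at -0.51 (SE 0.22) with 0.171. Ptgs2 was at -0.47 (SE 0.21) with 0.195, Klf2 at -0.40 (SE 0.19) with 0.214 and Npas4 at -0.49 (SE 0.24) with 0.229. Arc had the lowest fold change, log2 -0.65 (SE 0.34), and the widest 95% interval among these, from -1.33 to 0.018. Fos was at log2 -0.21 (SE 0.34) with an interval from -0.87 to 0.45, and Klf4 at 0.058 (SE 0.20).

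The 12 members not yet given by value in every genotype, Fosb, Nr4a2, Klf2, Crem, Dusp5, Dusp6, Ier5, Btg2, Trib1, Gadd45b, Gadd45g and Ptgs2, were all below 0, from log2 -0.60 (Ier5) to -0.089 (Gadd45b) in trisomic mice and from -0.41 (Trib1) to -0.20 (Crem) in duplication mice, both against +/+. Atf3, untested, ran from 0 to 2.03 CPM in trisomic, from 0.125 to 0.9635 CPM in duplication and from 0.266 to 2.21 CPM in +/+ mice.

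By role, 15 of 16 tested transcription factors were below 0 in trisomic mice (median log2 -0.30). So were 3 of 3 synaptic effectors (-0.63) and 4 of 5 secreted factors and enzymes (-0.19). In the mixed group of phosphatases, feedback genes and other early genes 9 of 9 were below 0 (-0.44). None of these counts is a test, because members that move together are not independent.

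The call for Scg2 depended on the processing and on single libraries. It passed without each of +/+ replicates 6, 8, 11 and 12 and Dp(16)1/Df(16)8 replicates 1, 4, 6, 7 and 10, and missed the threshold without each of the other 23 libraries, with an adjusted p of up to 0.106 by edgeR. With the striatal mean as a term it was at log2 0.25 (adjusted p = 0.344 by edgeR), and the median member was at -0.11 rather than -0.31. The labels give animal numbers and no batch, and numbers more than 20 apart were taken to start a new block, which gave 5 blocks. With these as terms Scg2 was at 0.39 (adjusted p = 0.459 by edgeR), and the median member at -0.099. All trisomic mice but 2 were in the block of animals 32333 to 32373, and those 2 were in a block with no other genotype. Within the block of animals 32333 to 32373, with 8 trisomic and 6 +/+ mice, Scg2 was at 0.46 (adjusted p = 0.31), Nptx2 at -0.29 and the median member at -0.23. Of the 12 excitatory cortical neuron markers 10 were below 0 in the same comparison and 12 were at an unadjusted p under 0.05, with a list median of log2 -0.56. Rorb, Lamp5, Emx1, Cux2 and Fezf2 were among the 6 that fell (by 0.50 to 1.085 on the log2 scale for these), and Foxp2 (0.65, SE 0.28) and Bcl11b (0.46, SE 0.22), which did not pass, were above 0. In that comparison all 15 striatal markers were above 0 with 0 passing and 1 at an unadjusted p under 0.05 by edgeR. The other marker lists went both ways. Of 8 interneuron markers 4 were below 0 (median log2 0.043) and 1 rose, Gad1 at 0.43 (SE 0.12). Of 6 microglia markers 2 were below 0 (median 0.036) and 1 rose, Ctss at 0.44 (SE 0.088). Of 6 astrocyte markers 2 were below 0 (median 0.0295), and these fell, Fgfr3 at -0.23 (SE 0.047) and Aldoc at -0.18 (SE 0.038). Of 4 thalamus markers 2 were below 0 (median 0.071) and 1 fell, Rora at -0.37 (SE 0.10). Of the markers of endothelium (6 tested), hippocampus (5), choroid plexus (2) and oligodendrocytes (4) 0 passed by edgeR, with 2, 1, 0 and 0 at an unadjusted p under 0.05. Apart from the striatal term, the part of these markers in the members' values was not tested.

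In Dp(16)1/Df(16)8 against +/+, 0 of 33 members rose and 0 fell by edgeR, while 0.418% of all genes rose and 0.156% fell. At an unadjusted p under 0.05, 1 member was higher and 2 were lower, against 6.16% and 6.62% of all genes. DESeq2 and limma voom called 0 members. The median member was at log2 -0.31 (median gene 0.0014) and 30 of 33 were below 0, against 49.5%. Ier2 was lowest at log2 -0.68 (SE 0.28, unadjusted p = 0.0213 and adjusted p = 0.311 by edgeR), Per1 was at -0.31 (SE 0.14, adjusted p = 0.357 by edgeR) and Scg2 at 0.30 (SE 0.14, adjusted p = 0.357 by edgeR). Arc was at -0.59 (SE 0.34) and Egr3 at -0.38 (SE 0.19), while Nptx2 was at -0.17 (SE 0.19), Vgf at -0.054 (SE 0.076), Jun at -0.018 (SE 0.17), Klf4 at 0.056 (SE 0.20) and Inhba at 0.020 (SE 0.23). Both comparisons use the same 12 +/+ libraries, so their values are given side by side and are not independent. With the striatal mean as a term the median member was at -0.23, with 27 of 33 below 0. With blocks as terms it was at -0.46, and within animals 32333 to 32373, with 3 duplication and 6 +/+ mice, at -0.68.

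The trisomic and duplication mice were compared directly. In Ts65Dn;Df(17)2 against Dp(16)1/Df(16)8, 0 of 33 members rose and 0 fell by edgeR, against 0.0436% and 0.00623% of all genes, and DESeq2 and limma voom called 0 members as well. At an unadjusted p under 0.05, 0 were higher (1.92% of all genes) and 1 was lower (2.18%). That one was Nptx2, at log2 -0.46 (SE 0.20, unadjusted p = 0.0333 and adjusted p = 1 by edgeR). The median member was at -0.031, with 18 of 33 below 0, against 49.9% of all genes. The differences had 95% intervals from -0.62 to 0.79 for Fos, from -0.76 to 0.63 for Arc and from -0.12 to 0.44 for Scg2. Those of Fos and Arc hold 0.5 in both directions, so a difference of that size was not excluded there. The sign of the median depended on the fit. With the striatal mean as a term it was at 0.096, with 13 of 33 below 0. With the blocks as terms it was at 0.27, with 2 of 33 below 0. In that fit 2 trisomic mice stood in a block with no other genotype. The other 8 stood in the block of animals 32333 to 32373, beside 3 duplication mice, so genotype and block are hard to tell apart. Within animals 32333 to 32373 alone the median was at 0.47, with 2 of 35 below 0, and Nptx2 was at 0.082.

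Members varied more between animals than most genes of like abundance. With genotype and sex taken out, the standard deviation of log2 CPM over the 32 libraries had a median of 0.519 for the members and 0.22 for all genes tested. All 33 tested members were above the median of the tenth of genes nearest in abundance, and 27 were in its top 10%. Fos (0.93) and Arc (0.9) were highest and Vgf (0.183) lowest.

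The residuals of most members followed those of Fos. Fos was related to the other 32 tested members across the 32 libraries, on log2 CPM minus the mean of each genotype and sex. By Pearson's r 25 of the 32 relations passed and by Spearman's rho 23 (permutation tests within genotype, two-sided, Benjamini-Hochberg adjusted over 32 relations), and each of the 25 was positive. Egr3 and Homer1 passed by r and not by rho. The points share depth and tissue makeup within a library. Fos was not related to the other genes tested, so the share of all genes that would pass is not known. In 9 of them r was 0.8 or more. Junb had r = 0.955 and rho = 0.946, Nr4a1 0.908 and 0.882, Egr4 0.9 and 0.882, Dusp1 0.886 and 0.85 and Npas4 0.879 and 0.861. Arc followed with 0.865 and 0.819, Fosb with 0.864 and 0.859, Nr4a3 with 0.822 and 0.794 and Btg2, an antiproliferative early gene, with 0.8 and 0.782. For these 9 the permutation p was 1e-05, the smallest that 100000 permutations can give, and the adjusted p 2.29e-05. Within each genotype r for these 9 was between 0.734 (Btg2 and Nr4a3 in duplication mice) and 0.979 (Junb in duplication mice).

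The relation with Fos did not pass for 7 members. Nr4a2 (r = 0.314), Vgf (0.292), Nptx2 (0.282), Crem (0.245), Ier5 (0.24), Scg2 (-0.142) and Inhba (-0.242) were these, with adjusted permutation p from 0.104 to 0.462. Without the 2 libraries farthest from the median of Fos, Dp(16)1/Df(16)8 replicate 3 and +/+ replicate 6, 22 relations passed. Bdnf (r = 0.436, rho = 0.43), Egr3 (0.416, 0.341) and Homer1 (0.39, 0.326) then had r of 0.275, 0.232 and 0.249 and no longer passed, so these relations rest on those libraries. For Junb r without them was 0.947, and for Egr1 0.598, against 0.723 with all. With the striatal mean also taken out 22 relations passed, and 25 passed without Dp(16)1/Df(16)8 replicate 2. With the means of the blocks taken out 25 passed too, of which 1 was negative (Inhba, r = -0.385).

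**Figure D2:**
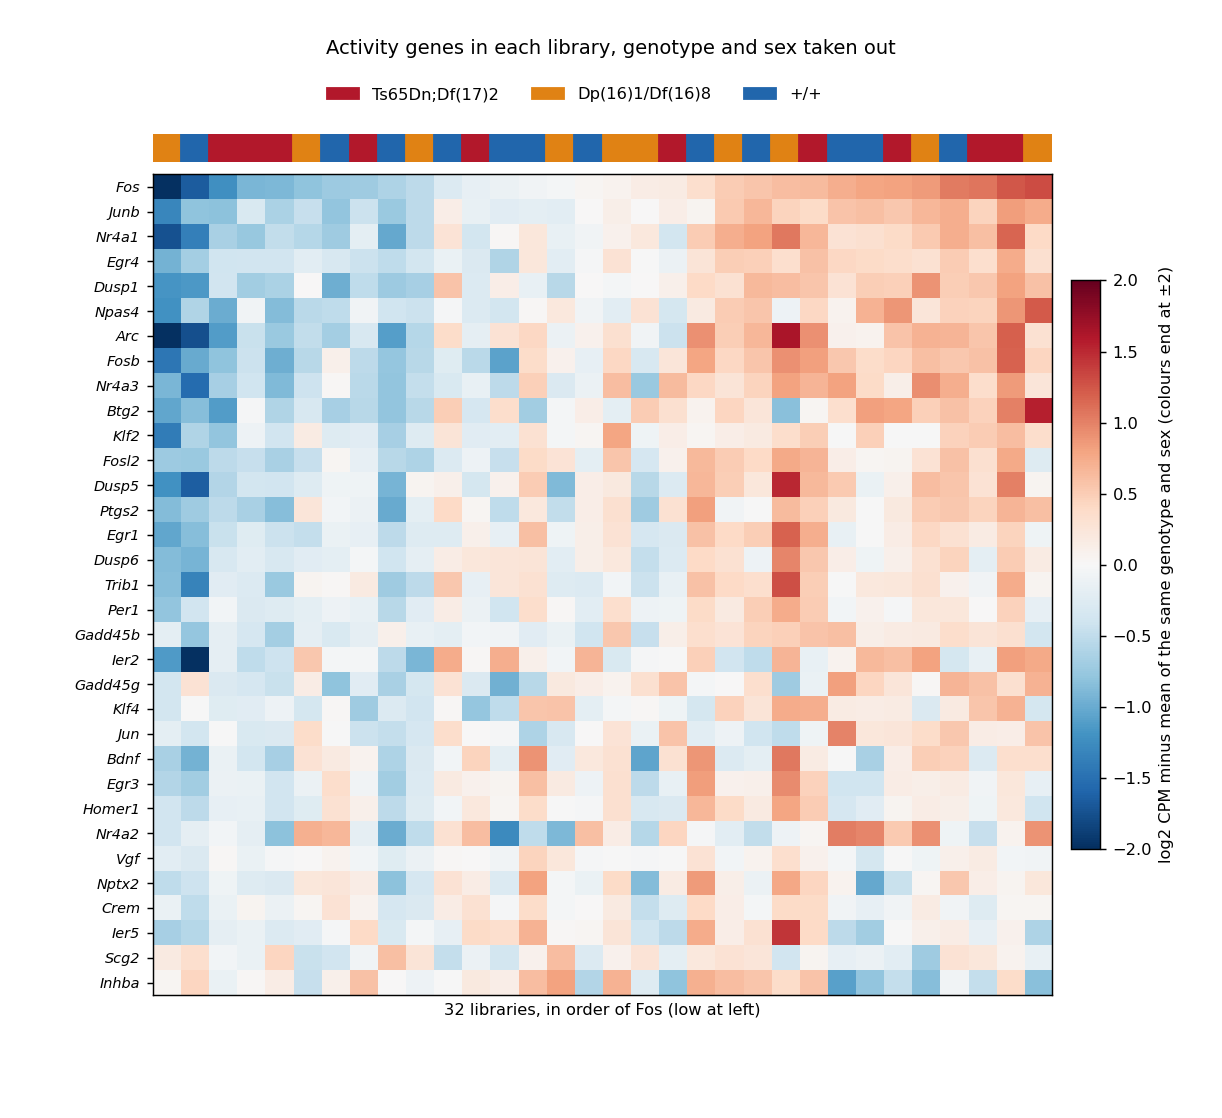
log2 CPM of 33 members in 32 libraries after the mean of the same genotype and sex was taken out, with libraries in the order of Fos and genes in the order of their r with Fos. Rows from Junb to Btg2 run from blue to red with Fos, the rows of Scg2 and Inhba do not, and all 3 genotypes occur on both sides of the order.

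**Figure D3:**
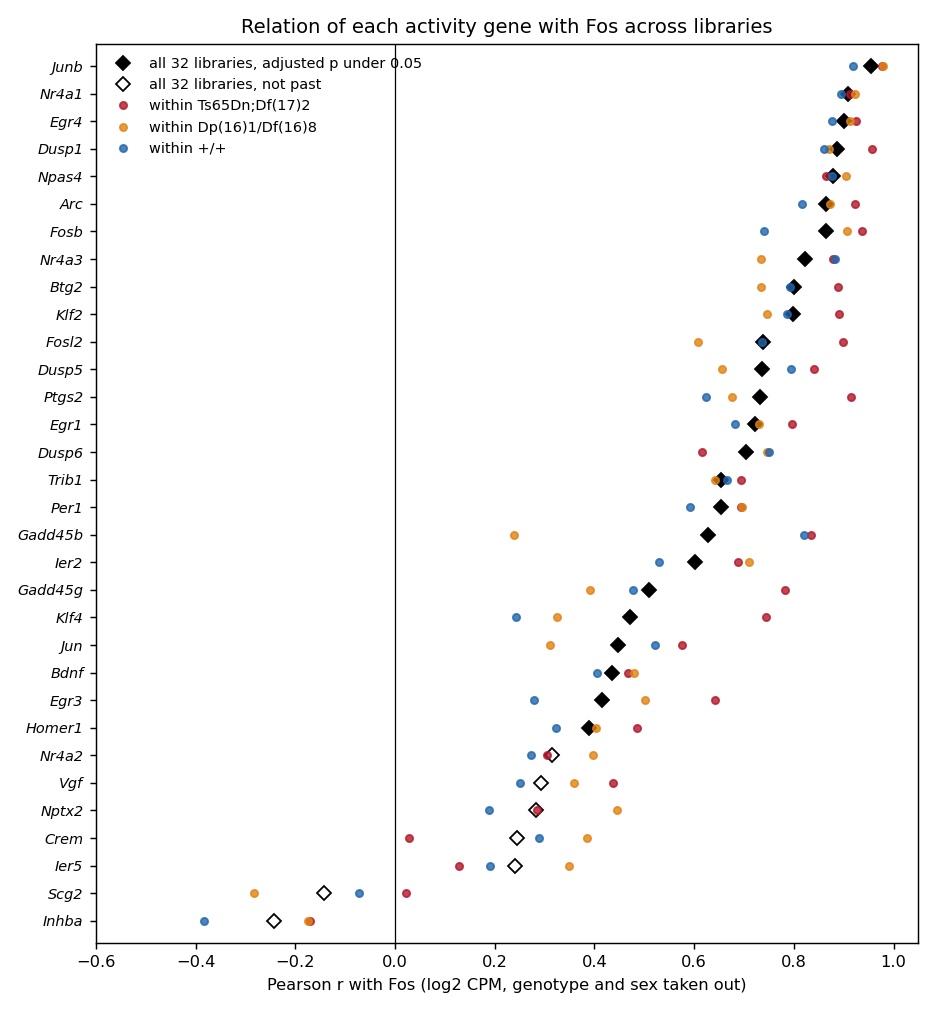
Pearson r of each member with Fos over all 32 libraries (diamonds, filled where the adjusted permutation p was under 0.05) and within each genotype (circles). Junb is highest at 0.955, Inhba lowest at -0.242, and the circles of Junb lie between 0.918 and 0.979.

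Members were compared by labelled sex as well. In males against females 0 of 33 members rose and 0 fell by edgeR (0.0312% and 0.0436% of all genes), as by DESeq2 and limma voom, and at an unadjusted p under 0.05, 0 were higher (3.93% of all genes) and 12 lower (6.01%). The median member was at log2 -0.31 in males and 31 of 33 were below 0, against 48.1% of all genes. Arc was lowest, at log2 -0.77 (SE 0.28, unadjusted p = 0.0109 and adjusted p = 0.433 by edgeR), with Dusp5 at -0.64 (SE 0.23), Ier5 at -0.63 (SE 0.18, adjusted p = 0.381 by edgeR) and Dusp6 at -0.44 (SE 0.145). Leaving out Dp(16)1/Df(16)8 replicate 2 gave a median of -0.34. Tissue markers differed in the same comparison. Of 15 striatal markers 0 were below 0 in males (median log2 0.21), with 0 at an unadjusted p under 0.05 by edgeR. Of 12 excitatory cortical neuron markers 10 were below 0 (median -0.23), with 5 at that p, and 0 of either list passed. The part of these markers in the members' difference between the sexes was not tested. Dusp6, a MAP kinase phosphatase, was at 31.7 to 56.6 CPM in trisomic males (median 34.7) and 40.2 to 73.5 CPM in trisomic females (median 49.2). It was at 36.3 to 52.5 CPM in duplication males (median 37.3) and 23.99 to 87.1 CPM in duplication females (median 49.6), and at 33.5 to 60.1 CPM in +/+ males (median 44.5) and 36.95 to 93 CPM in +/+ females (median 80.8). The sexes overlapped in each genotype.

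The median of Arc was 82.05 and 118 CPM in trisomic males and females, 108 and 138 CPM in duplication males and females, and 137 and 324 CPM in +/+ males and females. The highest medians of Arc, Dusp6, Egr1 and Ier5 were in +/+ females. Whether the genotype difference depended on sex was tested as an interaction, and 0 of 16042 genes passed by edgeR for either genotype (0.00% in each direction), with 3 members higher and 0 lower at an unadjusted p under 0.05 in each. Of all genes 2.34% were higher and 2.57% lower at that p for the trisomic genotype, and 2.36% and 2.66% for the duplication. For the trisomic genotype 7 of 33 members were below 0 (50.7% of all genes), and for the duplication 1 of 33 (50.5%). In trisomic mice the 3 were Crem (log2 0.66, SE 0.22), Egr3 (0.82, SE 0.35) and Homer1 (0.66, SE 0.30), with adjusted p = 0.94 by edgeR for each. In duplication mice they were Crem (0.58, SE 0.22), Homer1 (0.71, SE 0.30) and Dusp1 (1.03, SE 0.50), with adjusted p = 0.957. A positive value means that the log2 difference from +/+ was higher in males than in females. DESeq2 called 0 genes for the trisomic interaction and 2 for the duplication, of which 0 were members.

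**Figure D4:**
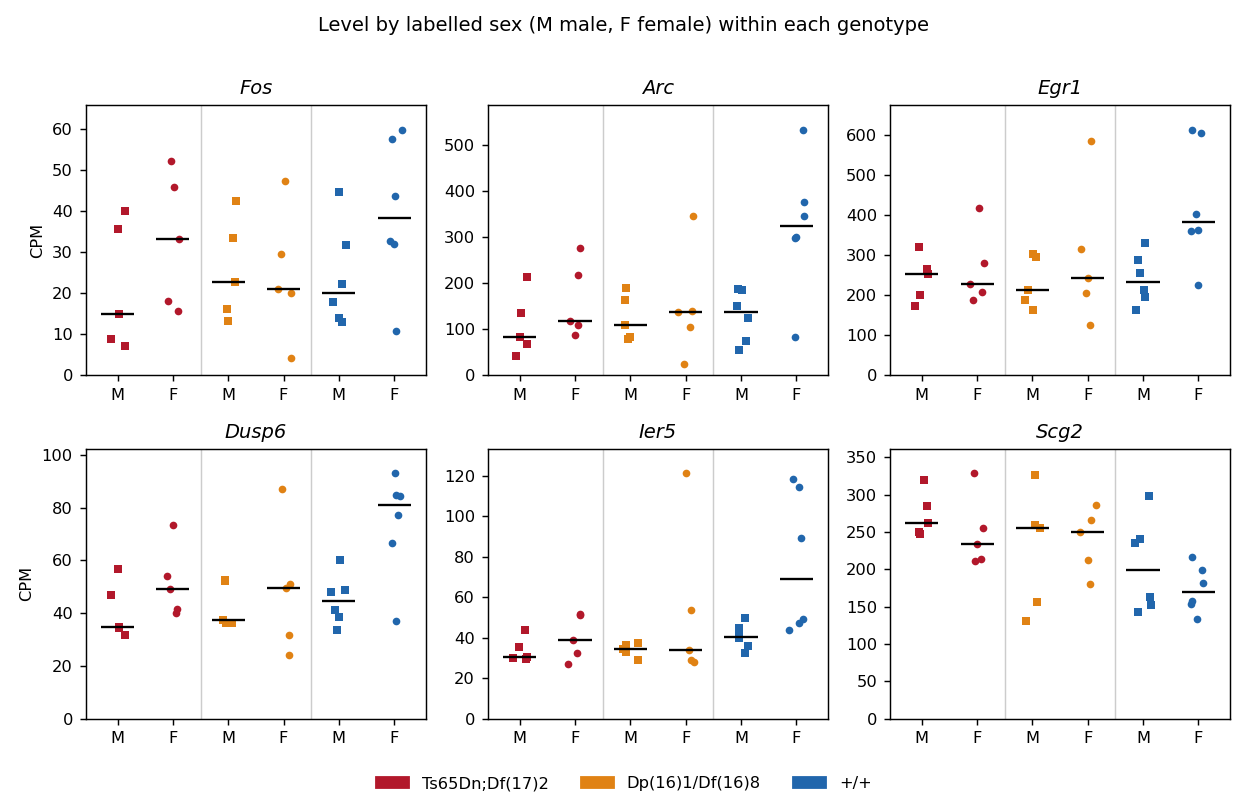
CPM of 6 members by labelled sex within Ts65Dn;Df(17)2, then Dp(16)1/Df(16)8, then +/+, squares for males and circles for females, with a bar at each median. The +/+ females have the highest median for Fos, Arc, Egr1, Dusp6 and Ier5, and the lowest for Scg2.

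The other genes of the pathway were counted in the same fits. Of 29 tested further activity-induced genes (32 listed), 1 fell and 0 rose in Ts65Dn;Df(17)2 against +/+: Ier3, an early response gene, at log2 -0.50 (SE 0.14), adjusted p = 0.0384 by edgeR. Of 40 upstream signalling genes 3 fell and 0 rose, where 2.22% of all genes fell and 1.75% rose. Camkk1, a kinase that activates CaM kinases, was at log2 -0.43 (SE 0.10) with 0.0182, Elk1, a partner of SRF, at -0.19 (SE 0.050) with 0.0325, and Hdac4, a histone deacetylase, at -0.35 (SE 0.095) with 0.0375. Of 17 tested partners and receptors (19 listed) 0 passed by edgeR. The calls in these lists were not followed in the fits with the striatal mean or the blocks as terms. Excitatory cortical neuron markers were lower in the same comparison (list median log2 -0.56), and their part was not tested. At an unadjusted p under 0.05 there were 6 of the 29 further activity-induced genes, 17 of the 40 upstream genes and 8 of the 17 partners, in either direction, where 10.4% of all genes were higher and 11.3% lower at that p. In Dp(16)1/Df(16)8 against +/+, in the direct comparison of the aneuploid genotypes and in males against females 0 genes of these lists passed by edgeR. At an unadjusted p under 0.05 the activity, upstream and partner lists had 3, 11 and 4 genes in duplication mice against +/+ (6.16% of all genes higher and 6.62% lower). They had 1, 0 and 0 in the direct comparison (1.92% and 2.18%) and 6, 5 and 1 in males against females (3.93% and 6.01%). 

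On GRCm38, with identifiers as in the table, Scg2 (ENSMUSG00000050711.7) lies on the minus strand of chromosome 1 at 79434669 to 79440120 and Nptx2 (ENSMUSG00000059991.7) on the plus strand of chromosome 5 at 144545902 to 144557478. Fos (ENSMUSG00000021250.13) lies on the plus strand of chromosome 12 at 85473890 to 85477273, Egr3 (ENSMUSG00000033730.4) on the plus strand of chromosome 14 at 70077203 to 70082614 and Arc (ENSMUSG00000022602.14) on the minus strand of chromosome 15 at 74669083 to 74672570.

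Reads that a member shares with another gene are a limit of counts with no stated strand. The exons of Junb overlap those of Prdx2 on the opposite strand (23421 counts in all, against 11027 of Junb), and those of Dusp1 overlap Ergic1 (24121 against 6616), so that their levels are uncertain, while both follow Fos.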

How the data were processed

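RNA of cerebral cortex was sequenced from 32 mice, and the authors deposited raw counts per gene as 1 table, with no normalization. Per the labels' protocols the RNA was depleted of ribosomal RNA, and the submitters' processing notes name STAR 2.7.9a, featureCounts (Subread 1.6.4) and bcl2fastq 2.20, and as builds GRCh38 beside GRCm38.p6. What each build was for and the strand setting are not given in the sources used here. The labels give each library's genotype and sex. In edgeR 4.0.16 (R 4.3.3), genes were kept by filterByExpr (16042 of 55401, with 99.75% of counts), libraries scaled by TMM, and genotype and sex fitted to all 32 by quasi-likelihood, with p adjusted over all tested genes at 0.05. SE is the size of the log2 fold change over the square root of F, and intervals are 1.96 SE. CPM uses TMM-scaled sizes and log2 CPM a prior count of 2. On simulated data (15910 genes, trisomic against +/+), 77.6% of 1.5-fold and 93.9% of 2-fold changes were recovered, and 6.15% of calls were false. The changed genes were drawn at random from expressed genes, members or not. Members vary more than most genes (median SD 0.519 against 0.22), so the share recovered among members was not measured. Alternatives used DESeq2 1.42.0 and limma 3.58.1. Named genes followed a rule: 14 fixed members, any past the threshold, and the 3 smallest and 3 largest p of each contrast with +/+. Members, pathway and marker lists and the rule were chosen with earlier results of these data known. P-values measure the spread between animals, as labelled. The result of 1 marker gene is not reported here.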

Additional observations from a re-analysis of the deposited data

Results flagged for a closer look

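A library stood far from the others of its genotype in 9 of 70 groups, each of a member in 1 aneuploid genotype of 10 libraries. The measure was its gap to the nearest over the whole range, on CPM without a log scale. Chance alone flags about 1 in 20 groups where values are normally distributed, which was not tested here. Each library flagged was the highest of its group, and members are not independent. In 7 of the 9 the library was the female Dp(16)1/Df(16)8 replicate 1. It had 584.9 CPM of Egr1 (next 315.1), 278.4 of Egr3 (next 181.1), 345.8 of Arc (next 188.6), 121.3 of Ier5 (next 53.69), 87.11 of Dusp6 (next 52.53), 44.04 of Trib1 (next 23.45) and 22.69 of Dusp5 (next 10.34). In that library the striatal mean was log2 3.62 and the excitatory mean 6.68, the highest excitatory mean of its genotype, and Fos was 0.62 above the mean of its genotype and sex on the log2 scale. Without it Ts65Dn;Df(17)2 against +/+ had 4 members past the threshold (Egr3, Ier5, Nptx2 and Scg2) in place of 1. Over all genes 903 of 16084 then passed in that comparison, against 637 of 16042 with it. The fold changes hardly moved, with Nptx2 at log2 -0.635 without it and -0.630 with it, and Scg2 at 0.460 and 0.463. The others were Homer1 in Ts65Dn;Df(17)2 replicate 5 (606 CPM, next 463.3) and Vgf in Ts65Dn;Df(17)2 replicate 7 (183.4 CPM, next 166.9).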

How the results depend on the processing

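No paired analysis was possible because the labels pair no animal of 1 genotype with an animal of another. They give animal numbers and no replicate numbers, and the replicate numbers used here follow the order of the samples in the series. The count of members past the threshold in Ts65Dn;Df(17)2 against +/+, 1 in the report, was 0 with no filter on low counts, with no sex term, with the striatal mean or the blocks as terms, with animals 32333 to 32373 alone and without animals numbered below 30000, and 3 by DESeq2; it was 1 with DESeq2 size factors, with only the genotypes compared and by limma voom, and 0 to 4 with one library left out, reaching 4 without +/+ replicate 6, +/+ replicate 11 or Dp(16)1/Df(16)8 replicate 1. Over all genes, 637 passed in that comparison, against 331 with no filter, 161 with the striatal mean, 86 with the blocks, 67 in animals 32333 to 32373, 280 without animals below 30000 and 1069 by DESeq2. In Dp(16)1/Df(16)8 against +/+ it was 92, against 236 with the blocks, 50 in animals 32333 to 32373 and 145 by DESeq2. With one library left out the first of these ran from 264 to 1486, and it was 903 without Dp(16)1/Df(16)8 replicate 1. It was 1486 without +/+ replicate 11, 1108 without +/+ replicate 6, 264, 276, 358 and 395 without Ts65Dn;Df(17)2 replicates 2, 7, 8 and 4, 294, 305, 308, 328, 361 and 404 without +/+ replicates 5, 4, 10, 9, 1 and 7, and 421 without Ts65Dn;Df(17)2 replicate 9. The duplication count was 222 without Dp(16)1/Df(16)8 replicate 1 and 165 without +/+ replicate 11. The other counts of members stayed at 0 in all alternatives run and with each library left out. The median member of the direct comparison, -0.031, was 0.096 with the striatal mean and 0.27 with the blocks. It was 0.47 with animals 32333 to 32373 alone, where 3 duplication mice remain. In the fit with the blocks, 2 trisomic mice stood in a block with no other genotype, and the other 8 among animals 32333 to 32373. With one library left out the medians ran from -0.41 to -0.26 in Ts65Dn;Df(17)2 against +/+, from -0.39 to -0.23 in Dp(16)1/Df(16)8 against +/+ and from -0.13 to 0.088 in the direct comparison. Fold changes near 0 changed sign, with the cause not tested. With the striatal mean, in Ts65Dn;Df(17)2 against +/+, Fos was at log2 0.0196, Fosl2 at 0.11 and Nr4a3 at 0.18, and in Dp(16)1/Df(16)8 against +/+ Bdnf was at 0.0694, Inhba at -0.0486, Jun at 0.0448, Nptx2 at 0.0156 and Vgf at 0.0066. With the blocks, in the first comparison Fosl2 was at 0.19, Inhba at 0.0952, Nr4a1 at 0.0148, Nr4a3 at 0.0362 and Per1 at 0.004, in the second Inhba at -0.0488 and Klf4 at -0.0072, and in the direct comparison Nptx2 at 0.0976. With animals 32333 to 32373 alone, in the first comparison Fosl2 was at 0.0974 and Inhba at 0.14, in the second Klf4 at -0.26, and in the direct one Nptx2 at 0.082 and Scg2 at -0.0702. Without animals below 30000 Klf4 was at -0.0387 in the first, and by limma voom Klf4 was at -0.0012 there and Jun at 0.0072 in the second. With one library left out, Fosl2 ran from -0.16 to 0.033 and Klf4 from -0.0483 to 0.14 in the first, and Inhba from -0.081 to 0.12, Jun from -0.087 to 0.098 and Klf4 from -0.043 to 0.14 in the second. Egr2 had at most 19 counts in a library, which limits its precision.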
